A study of Homo sapiens with 22 samples.

Results

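The proteasome genes described here were the 48 gene names in both raw count tables, of 59087 names in all, that carry the PSM stem of the core particle (PSMA, PSMB), the regulatory particle (PSMC, PSMD), the activators (PSME), the inhibitor PI31 (PSMF1) and the assembly chaperones (PSMG), with 28 names that end in the pseudogene letter left out. RNA was measured in HUDEP-2, an immortalised human erythroid progenitor line from cord blood, in 2 experiments with a count table each. The H2A.X experiment held WT cells (2 libraries a day) and cells in which the gene of the variant histone H2A.X was knocked out (KO, 3 libraries a day), and the BAZ1B experiment held WT and BAZ1B KO cells (3 libraries each a day), BAZ1B being the chromatin remodeler and kinase that phosphorylates H2A.X on a tyrosine. All cells were taken at D0, while they grew in expansion medium with stem cell factor, erythropoietin, dexamethasone and doxycycline, and at D6 of maturation in differentiation medium. The KO lines were subclones grown from single cells after lentiviral CRISPR/Cas9 editing with 2 guides, so the spread among KO libraries is a spread among clones. The same KO number at D0 and D6 marks the same subclone.

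The proteasome is a barrel of alpha and beta subunit rings that degrades proteins tagged with ubiquitin, capped by a regulatory particle whose base of ATPases unfolds the substrate and whose lid removes the ubiquitin. Under interferon and in many blood cells the catalytic subunits PSMB5, PSMB6 and PSMB7 are replaced by PSMB8, PSMB9 and PSMB10 to form the immunoproteasome, which favours peptides that bind MHC class I. Maturing red cells are rich in proteasomes, which clear surplus proteins and unpaired globin chains before the nucleus and organelles are lost.

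Among the proteasome genes, PSMB9 and PSMB8 had the largest fold changes in maturation, and PSME1 and PSME2, which encode the partner chains of the PA28 activator ring, moved in opposite directions during maturation in BAZ1B WT and KO cells. The sequence around the start of these 4 genes is therefore shown, as 300 bases from 250 before to 50 after the RefSeq start on GRCh38.p14, read 5′ to 3′ on the gene's own strand. Capitals mark matches on either strand to TGACNNNGC, the core of the antioxidant response element bound by NFE2L1 and NFE2L2, or to the core of the interferon-stimulated response element bound by IRF factors, which is GAAA, any 2 bases and GAAA again. The windows read as follows:
PSMB8, chr6:32844630-32844929, minus strand: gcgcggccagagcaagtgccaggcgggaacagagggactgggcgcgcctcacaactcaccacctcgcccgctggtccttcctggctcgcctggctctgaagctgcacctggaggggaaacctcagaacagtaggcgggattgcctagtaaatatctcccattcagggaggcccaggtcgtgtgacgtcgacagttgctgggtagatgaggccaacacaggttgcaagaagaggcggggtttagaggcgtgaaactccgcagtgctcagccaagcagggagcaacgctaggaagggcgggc
PSMB9, chr6:32853942-32854241, plus strand: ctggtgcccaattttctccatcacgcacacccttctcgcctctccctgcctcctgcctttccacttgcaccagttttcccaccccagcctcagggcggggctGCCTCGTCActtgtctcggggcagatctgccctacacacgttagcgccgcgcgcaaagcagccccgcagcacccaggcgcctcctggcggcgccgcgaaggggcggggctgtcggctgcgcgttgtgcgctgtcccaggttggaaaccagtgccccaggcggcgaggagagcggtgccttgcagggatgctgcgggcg
PSME1, chr14:24135944-24136243, plus strand: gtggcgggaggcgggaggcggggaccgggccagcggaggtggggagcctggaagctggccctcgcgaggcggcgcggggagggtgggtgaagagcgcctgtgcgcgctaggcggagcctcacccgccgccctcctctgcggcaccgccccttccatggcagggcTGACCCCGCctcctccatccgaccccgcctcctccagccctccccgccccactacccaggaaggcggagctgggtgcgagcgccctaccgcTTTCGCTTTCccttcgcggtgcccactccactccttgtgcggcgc
PSME2, chr14:24146561-24146860, minus strand: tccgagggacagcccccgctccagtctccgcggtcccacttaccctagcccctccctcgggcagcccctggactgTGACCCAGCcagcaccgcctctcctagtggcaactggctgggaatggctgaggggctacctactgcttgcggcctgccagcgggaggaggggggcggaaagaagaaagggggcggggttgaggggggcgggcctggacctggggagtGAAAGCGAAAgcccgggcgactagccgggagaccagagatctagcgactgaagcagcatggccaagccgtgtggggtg

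Of the 4 windows, that of PSMB8 held neither core, that of PSMB9 held 1 match to TGACNNNGC, and those of PSME1 and PSME2 each held 1 match to both, with no overlap between matches. The PSMB9 and PSME2 windows lie inside their genes as GENCODE draws them, since that annotation starts both genes further upstream. Over the 42 proteasome genes with a RefSeq window, 13 (31%) held TGACNNNGC, against 13.3% of 35116 windows of the same length, and 6 (14.3%; PSMA4, PSMB4, PSMB10, PSME1, PSME2 and PSMG4) held the interferon-response core, against 3.57% of all windows. These are matches of letters, and binding was not measured. PSMA7, PSMB1, PSMB6, PSMB7, PSMD4 and PSMG3 had no RefSeq window here and were not searched.

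Library totals ran from 11910141 to 21013004 reads in the H2A.X experiment and from 33199408 to 41273244 in the BAZ1B experiment, and the biological coefficient of variation of the fit was 0.239 and 0.0865, so that smaller differences could be called in the BAZ1B experiment. The targeted genes were lower in KO cells on both days: the H2A.X gene H2AFX by a log2 fold change of -1.5 at D0 and -1.52 at D6, and BAZ1B by -0.40 and -0.38 (edgeR quasi-likelihood test, Benjamini-Hochberg adjusted p = 0.0304, 0.0233, 0.00415 and 0.00250). The summed CPM (counts scaled to the library total) of 10 erythroid markers, with no marker at 0 in the H2A.X experiment, ran from 22628 to 31256 in H2A.X WT and from 11854 to 15637 in H2A.X KO cells at D0, and from 6181 to 7821 over the BAZ1B experiment at D0. H2A.X WT cells at D0 thus stood above the other D0 cells in erythroid message. The H2A.X WT libraries stood apart from each other at D0, with a median of -0.30 in replicate 1 and 0.25 in replicate 2 over the tested proteasome genes (log2 of the ratio to their mean), and the counts of H2A.X KO against WT below are also given without replicate 2. In 5 of the 6 H2A.X KO columns, and in no WT column, the header carries the word Redo, so a difference in handling and the genotype cannot be told apart.

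Levels are given as CPM after TMM scaling for each kb of the canonical transcript, and comparisons between genes depend on that choice of length. On this scale PSMG1 stood at 104 in BAZ1B WT cells at D0, below PSMD8. Per kb of all annotated exons of the gene, PSMB1, PSMG1 and PSMD8 stood at 87.5, 84.8 and 65.6. In BAZ1B WT cells at D0 the 48 genes summed to 3241, 3212 and 3218. Beta subunits of the constitutive core were among the most abundant, with PSMB1 at 218 ± 2.74 (SD, n = 3), and the lid subunit PSMD8 stood at 186 ± 1.78 (SD, n = 3). Subunits that share a ring did not have equal messages. In the alpha ring PSMA7 stood at 185 ± 3.36 (SD, n = 3), PSMA1 at 13.6 ± 0.321 (SD, n = 3) and PSMA2 at 4.35 ± 0.310 (SD, n = 3). Some of the low values stood where the annotation overlaps: other genes' exons cover 100% of the PSMA2 transcript, 83.2% of PSMC1, 81.4% of PSMA6, 67% of PSMA1, 56.1% of PSMB10 and 51.6% of PSMD7, and how shared reads were counted is not given in the sources used here. The levels of these 6 genes are therefore uncertain. PSMD7 was not among the low ones, at 79.0 ± 1.84 (SD, n = 3). PSMD9, with 28.8% covered, was low at 3.08 ± 0.181 (SD, n = 3). PSMA8, the alpha subunit of the testis proteasome, and PSMB11, the catalytic subunit of the thymus, had 0 reads in all 22 libraries and were not tested, which left 46 genes tested in both experiments.

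The immunoproteasome subunits PSMB9 (ENSG00000240065.8, chr6:32844136-32859851, plus strand, hg38) and PSMB8 (ENSG00000204264.12, chr6:32840717-32844679, minus strand) fell during maturation in 3 of the 4 cell groups. The level of PSMB9 in BAZ1B WT cells was 11, 10.7 and 11.4 at D0 and 0.0876, 0.118 and 0.0791 at D6, the latter from 3, 4 and 3 reads. All 3 libraries at D6 lay far below all 3 at D0. The log2 fold change was -6.82 ± 0.54 (SE; edgeR adjusted p = 1.40e-07). In BAZ1B KO cells PSMB9 went from 6.55, 23.6 and 16.2 to 0.0778, 0.152 and 0.137, a log2 fold change of -6.96 ± 0.51 (edgeR adjusted p = 7.50e-08). In H2A.X KO cells it went from 6.86, 4.95 and 2.26 to 0.154, 0.106 and 0.0540, a log2 fold change of -5.38 ± 0.64 (edgeR adjusted p = 0.000334). With 3, 5 and 5 reads left at D6 in BAZ1B KO and 3, 2 and 1 in H2A.X KO cells, PSMB9 was near the limit of detection at D6 in all 3 groups, and the size of the fall is less certain than its direction.

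H2A.X WT cells were the exception, and PSMB9 was already low there at D0. Its level was 0.226 and 0.335 at D0 (4 and 5 reads) and 0.448 and 0.100 at D6 (7 and 1 reads), and the groups overlapped (log2 fold change 0.10 ± 0.83, edgeR adjusted p = 0.964). PSMB9 was the 1 proteasome gene whose KO effect differed between the days in the H2A.X experiment, by a log2 difference of -5.48 ± 1.10 (edgeR adjusted p = 0.0442; 1.34% of all genes passed this test). With a block term for each genotype and replicate number 2 genes passed, PSMB8 being the other. Without H2A.X WT D6 replicate 1 the PSMB9 difference was -3.95 with an adjusted p of 0.438, and the call was also lost without either WT D0 library, KO D0 replicate 1 or 2, or KO D6 replicate 1 or 2.

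PSMB8, the counterpart of the chymotrypsin-like subunit PSMB5, followed the same course at a smaller size. In BAZ1B WT cells its level was 18.5, 19.3 and 19.2 at D0 and 3.59, 2.95 and 3.01 at D6, with no overlap (log2 fold change -2.58 ± 0.21, edgeR adjusted p = 2.09e-07). In BAZ1B KO cells it was 16.0, 30.7 and 27.0 at D0 and 5.04, 5.66 and 4.01 at D6 (log2 fold change -2.33 ± 0.20, edgeR adjusted p = 3.90e-07). KO replicate 1 at D0 was the lowest of that group for PSMB8 and for PSMB9. In H2A.X KO cells PSMB8 was 14, 10.7 and 8.08 at D0 and 6.42, 2.55 and 3.08 at D6 (log2 fold change -1.44 ± 0.35, edgeR adjusted p = 0.0110). In H2A.X WT cells the values ran the other way, 3.02 and 2.97 at D0 and 6.60 and 7.07 at D6, without overlap, but the difference was not called (log2 fold change 1.19 ± 0.44, edgeR adjusted p = 0.162).

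PSMB10, the third immunoproteasome subunit and the counterpart of PSMB7, did not fall in these cells. It rose in BAZ1B WT cells from 3.04, 2.86 and 3.29 to 4.83, 3.85 and 5.11 (log2 fold change 0.59 ± 0.16, edgeR adjusted p = 0.00560) and in H2A.X KO cells from 3.74, 2.55 and 2.11 to 6.15, 5.37 and 5.01 (log2 fold change 0.97 ± 0.31, edgeR adjusted p = 0.0357). The call in H2A.X KO cells was lost without KO D0 replicate 2 or 3 or KO D6 replicate 1 or 2 (adjusted p = 0.114, 0.136, 0.0834 and 0.0703). In BAZ1B KO cells its log2 fold change was 0.13 ± 0.16 and the groups were not told apart (edgeR adjusted p = 0.480).

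**Figure D1:**
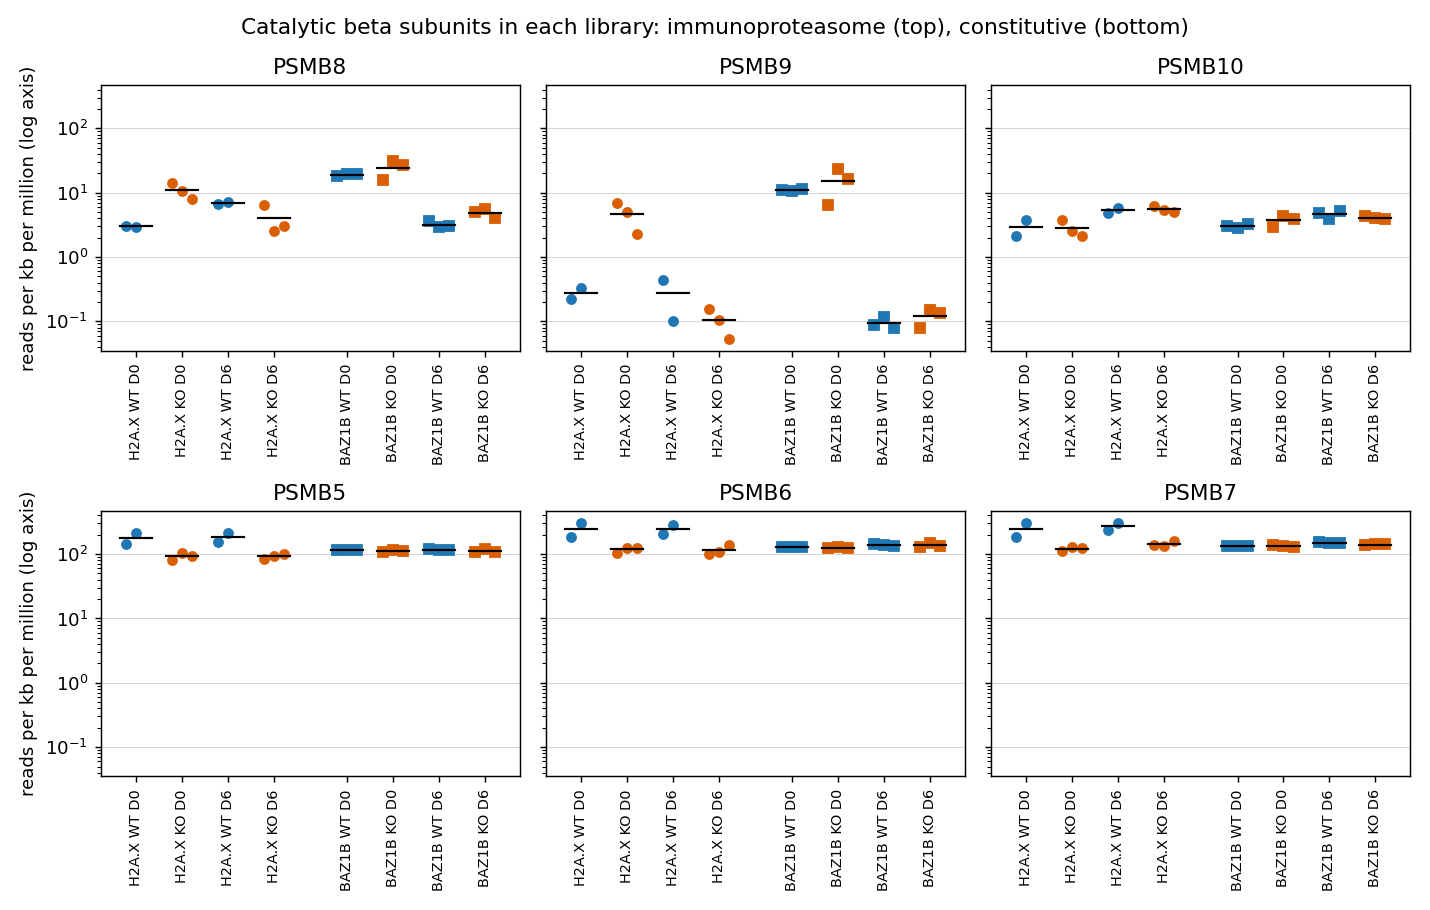
Level of each catalytic beta subunit in every library, in CPM per kb on a log axis; blue is WT, orange is KO, circles are the H2A.X and squares the BAZ1B experiment, and black lines are group means. PSMB9 and PSMB8 drop between D0 and D6 in BAZ1B WT, BAZ1B KO and H2A.X KO cells, while PSMB9 in H2A.X WT cells lies below 0.5 on both days.

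The balance between the catalytic sets can be read as the share of PSMB8 in the sum of PSMB8 and PSMB5, on the per-kb scale. In BAZ1B WT cells this share was 14.2% ± 0.303 (SD, n = 3) at D0 and 2.63% ± 0.243 (SD, n = 3) at D6. In BAZ1B KO cells it was 17.8% ± 4.41 at D0 and 4.18% ± 0.567 at D6 (SD, n = 3 each). H2A.X KO cells had 10.7% ± 3.56 at D0 and 4.25% ± 2.45 at D6 (SD, n = 3 each), and H2A.X WT cells had 1.72% ± 0.508 at D0 and 3.66% ± 0.661 at D6 (SD, n = 2 each). Messages for the constitutive subunit of this site outnumbered those for PSMB8 in every group. PSMB9 took 7.87% ± 0.309 of its sum with PSMB6 in BAZ1B WT cells at D0 and 0.0685% ± 0.0144 at D6 (SD, n = 3 each). PSMB5 itself held steady over maturation in the BAZ1B experiment, with 114 ± 0.556 (SD, n = 3) in WT at D0 and 118 ± 2.06 (SD, n = 3) at D6.

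The 12 genes of antigen processing and its regulators, a list chosen with earlier results of these data known, moved in both directions beside these subunits. In BAZ1B WT maturation 3 rose and 6 fell, with a list median log2 fold change of -0.18 against -0.02 over all genes. Of all genes 33.5% rose and 35.4% fell (68.9% in all). In BAZ1B KO maturation 4 rose and 6 fell (median -0.38), and in H2A.X KO maturation 4 rose and 2 fell (median 0.20). During maturation in the BAZ1B experiment the class I heavy chains HLA-C (log2 fold change -2.68 ± 0.26) and HLA-B (-2.61 ± 0.34) fell (edgeR adjusted p = 1.03e-06 and 1.72e-05). IRF1, an interferon-induced activator of the immunoproteasome genes, rose there by 2.73 (edgeR adjusted p = 1.18e-10). TAP1, the peptide transporter gene that neighbours PSMB9 and was picked for that place after its values were seen, fell by 1.86 on the log2 scale (edgeR adjusted p = 4.79e-06). Messages of a granulocytic kind also fell in maturation. The summed CPM of 10 mast cell and eosinophil markers went from 473–516 to 33.2–44 in BAZ1B WT and from 455–623 to 13.2–39.9 in BAZ1B KO cells. It went from 212–429 to 3.52–14.5 in H2A.X KO cells. They were 104–140 at D0 and 145–232 at D6 in H2A.X WT cells, with 5 and 4 of the 10 markers at 0. The fall was not particular to these markers. The summed CPM of 4 megakaryocyte markers went from 72.3–75.5 to 8.32–10.4 in BAZ1B WT and from 34.4–67.6 to 1.42–4.77 in BAZ1B KO cells. It went from 32.7–75.7 to 1.93–4.78 in H2A.X KO cells, and was 8.72–9.67 at D0 and 3.57–7.93 at D6 in H2A.X WT cells. In bulk RNA, fewer cells of a type and less RNA per cell cannot be told apart, and the part of these markers in the fall of PSMB8 and PSMB9 was not tested.

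Most other proteasome genes had smaller fold changes during maturation, and the counts over all 46 tested genes, PSMB8, PSMB9 and PSMB10 among them, were as follows. In BAZ1B WT cells 20 of 46 proteasome genes rose and 9 fell, against 33.5% and 35.4% of all 13879 genes tested (68.9% in all). In BAZ1B KO cells 19 rose and 7 fell, against 33.2% and 34.5% of all genes (67.7% in all). In H2A.X KO cells 8 rose and 3 fell, against 14.8% and 16.1% of 13236 genes (30.9% in all). The genes called made up 63.0%, 56.5% and 23.9% of the 46, in each case below the share over all genes. They split into 43.5%, 41.3% and 17.4% rising and 19.6%, 15.2% and 6.52% falling. The median log2 fold change of the 46 genes was 0.09, 0.08 and 0.10 in the 3 groups, against -0.02, -0.02 and 0.02 over all genes, and a correction for transcript length and GC moved the median of all genes to 0.09, 0.10 and 0.10 and that of the proteasome genes to 0.14, 0.15 and 0.19. Under a stricter rule (edgeR adjusted p under 0.001, with a log2 change of more than 1.5 either way) PSMB8 and PSMB9 passed in BAZ1B WT and BAZ1B KO cells and PSMB9 in H2A.X KO cells, against 11.7%, 11.5% and 3.22% of all genes. No proteasome gene passed it in H2A.X WT maturation (0% of all genes), in KO against WT for H2A.X at D0 (0.166%) or D6 (0.151%) or for BAZ1B at D0 (0.36%) or D6 (0.749%), or in the difference between the days for H2A.X (0%) or BAZ1B (0.0288%). Of 29 genes called in BAZ1B WT and 26 in BAZ1B KO cells, 24 were called in both and in the same direction (82.8% of the first and 92.3% of the second list). All 11 genes called in H2A.X KO cells were among the 29 of BAZ1B WT and had the same direction (37.9% of the longer list). These overlaps were not counted over all genes, of which 68.9% were called in BAZ1B WT and 67.7% in BAZ1B KO cells.

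By role, the ATPases of the base mostly rose: 5 of 6 rose in BAZ1B WT and 5 of 6 in BAZ1B KO cells, the median being 0.29 and 0.27 on the log2 scale. Of all genes 33.5% rose and 35.4% fell in BAZ1B WT, and 33.2% and 34.5% in BAZ1B KO cells. In BAZ1B WT cells PSMC6 was 39.2, 41.6 and 41.4 at D0 and 56.0, 56.1 and 54.1 at D6 and PSMC1 was 12.1, 11.8 and 12.0 at D0 and 13.8, 13.0 and 12.3 at D6; PSMC1, the flattest of the ring, was the 1 not called. The lid was divided. PSMD12 (BAZ1B WT 23.8, 23.1 and 22.7 to 35, 35.1 and 32.7) and PSMD6 (91.6, 90.1 and 93.7 to 134, 129 and 132) rose, whereas PSMD7, the partner of the deubiquitinase PSMD14, fell from 80.5, 76.9 and 79.6 to 65.8, 64.3 and 65.2. The deubiquitinase PSMD14 itself stood at 81.0, 80.2 and 78.1 at D0 and 75, 75.6 and 72.5 at D6 and was not called. Of the 7 alpha ring genes 2 rose and 1 fell, and of the 3 constitutive catalytic genes PSMB7 alone rose, in BAZ1B WT cells. These shares of rising genes were close to the 33.5% of all genes.

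The largest rises in the BAZ1B experiment were in PSMG3, PSME1 and PSMF1, and PSMG3 and PSME1 led in H2A.X KO cells as well. PSMG3, a chaperone of alpha ring assembly (ENSG00000157778.9, chr7:1567332-1571005, minus strand), was 12.1, 12.7 and 14.3 at D0 and 29.4, 28.7 and 30.9 at D6 in BAZ1B WT cells (log2 fold change 1.18 ± 0.11, edgeR adjusted p = 6.39e-07). It also rose in BAZ1B KO (0.91 ± 0.11) and H2A.X KO cells (1.43 ± 0.28; edgeR adjusted p = 8.21e-06 and 0.00385). Of the other chaperones of this step, PSMG2 rose (0.37 in BAZ1B WT) and its partner PSMG1 fell (-0.32), as did PSMG4, the partner of PSMG3 (-0.26). Partner chaperones thus had log2 fold changes of opposite sign in BAZ1B WT maturation. PSMF1, which encodes the inhibitor PI31 (ENSG00000125818.18, chr20:1113240-1189415, plus strand), was 29.3, 29.2 and 27.6 at D0 and 48.8, 46.9 and 48.4 at D6 (log2 fold change 0.74 ± 0.04), and rose by 0.93 ± 0.04 in BAZ1B KO and 0.72 ± 0.11 in H2A.X KO cells (edgeR adjusted p = 3.46e-09, 5.79e-10 and 0.00129).

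The activators were split, and PSME1 and PSME2, whose windows both hold both motif cores, went in opposite directions. PSME1 (ENSG00000092010.15, chr14:24136163-24138967, plus strand), the alpha chain of PA28, was 55.0, 56.2 and 59.9 at D0 and 118, 118 and 127 at D6 in BAZ1B WT cells, with no overlap. Its log2 fold change was 1.08 ± 0.09 there, 0.96 ± 0.09 in BAZ1B KO and 1.02 ± 0.18 in H2A.X KO cells (edgeR adjusted p = 2.90e-07, 1.03e-06 and 0.00219). PSME2 (ENSG00000100911.16, chr14:24143362-24147570, minus strand), the beta chain, was 54.8, 56.0 and 51.9 at D0 and 42.0, 43.4 and 42.7 at D6. It fell by 0.34 on the log2 scale in BAZ1B WT and by 0.59 in BAZ1B KO cells (edgeR adjusted p = 0.00243 and 3.30e-05), and its value of -0.54 ± 0.25 in H2A.X KO cells was not called. PSME1 and PSME2 stood at like levels at D0 and PSME1 was the higher in every BAZ1B library at D6. PSME3, the nuclear PA28 gamma activator, was 99.0, 96.0 and 93.7 at D0 and 64.6, 66.9 and 59.8 at D6 in BAZ1B WT cells, a log2 fold change of -0.59 ± 0.05. It fell by 0.67 on the log2 scale in H2A.X KO cells too (edgeR adjusted p = 1.84e-07 and 0.00535). PSME4, the PA200 activator, had log2 fold changes between -0.03 and 0.18 in these 3 groups, none called.

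**Figure D2:**
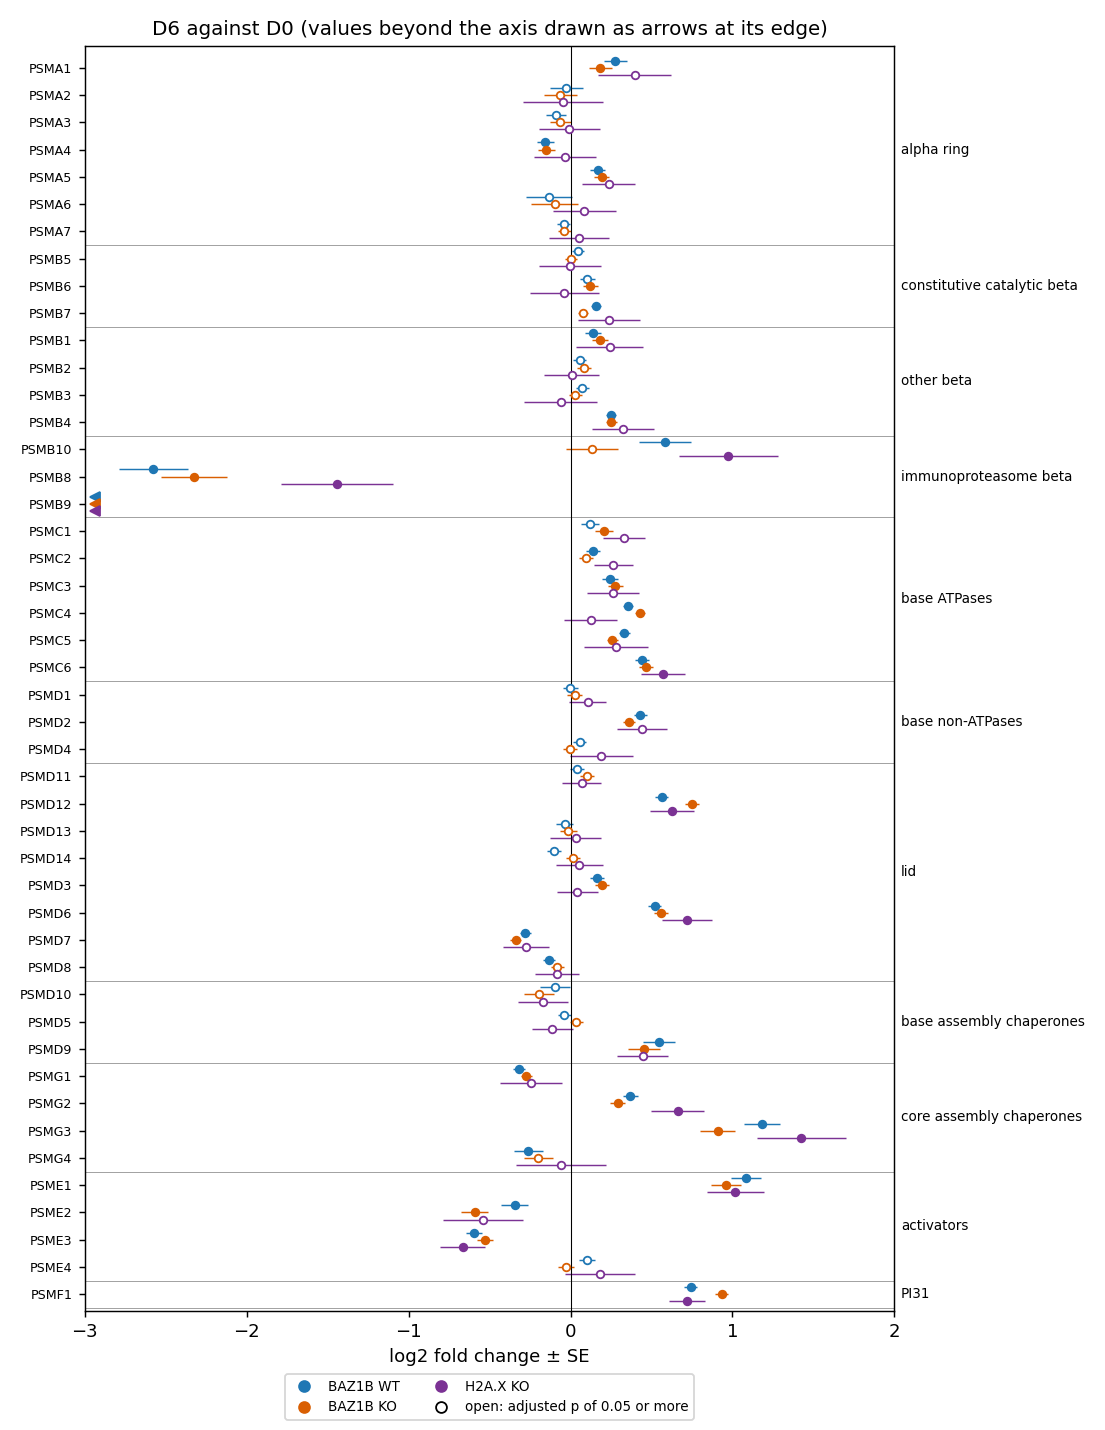
Log2 fold change of D6 over D0 for each of the 46 tested genes, grouped by role, with its SE; filled points passed an adjusted p of 0.05 and arrows at the left edge mark values beyond the axis. Apart from PSMB8 and PSMB9, the genes lie between -0.67 and 1.43, and PSMG3 and PSME1 stand far to the right in all 3 groups.

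In H2A.X WT cells none of the 46 genes was called between D0 and D6, against 2% of all genes (0.839% higher, 1.16% lower). Of the 46, 6 had an unadjusted p under 0.05, and DESeq2 called 1 (PSME3, named after its values were seen). A block term for each genotype and replicate number called PSMB8, PSME1 and PSMG3 higher and PSME3 lower, against 8.51% of all genes. With 2 libraries a day the values of PSMG3 were 33.4 and 51.8 at D0 and 59.3 and 90.4 at D6, and those of PSME1 were 136 and 199 and 199.9 and 278. Both had higher values at D6 than at D0 in both libraries, as in the other 3 groups. In H2A.X WT cells 25.2% of all genes did so.

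Against H2A.X WT cells, H2A.X KO cells had lower message for most constitutive proteasome genes on both days. At D0, 30 of 46 genes were lower and 3 higher, against 16.7% and 18.4% of 13236 genes (35.1% in all), and the median log2 fold change was -0.72 against 0.01 over all genes. At D6, 24 were lower and 2 higher, against 20.9% and 22.2% (43.1% in all), with a median of -0.62 against -0.01. The 25 genes called on both days had the same direction on both (75.8% of the D0 and 96.2% of the D6 list). That overlap was not counted over all genes. The calls of lower message in KO cells rest on WT replicate 2. The summed level of the 48 genes at D0 was 4175 and 6222 in the WT libraries and 2952, 3169 and 3139 in the KO libraries, and at D6 4943 and 6307 against 3297, 3359 and 3786. Both WT libraries lay above all 3 KO libraries on both days. Without WT D0 replicate 2, 0 genes were called at D0 (median -0.39, with 0.551% of all genes called), and without WT D6 replicate 2, 0 were called at D6 (median -0.44, with 1.10% of all genes called). Without KO D0 replicate 1, 20 were called at D0.

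The proteasome genes have short transcripts (median 1494 bases, against 3147 over the expressed genes), and the KO effect rose with transcript length over 11717 genes (Spearman rho 0.544 at D0 and 0.598 at D6, a description across genes of the same libraries). After correction for length and GC, 24 genes were lower and 2 higher at D0, and 9 lower and 1 higher at D6, where the median was -0.23; this is 26 and 10 of 46 genes, against 25.05% and 20.9% of all genes. The pooled share at D6 was thus close to that of all genes, but 9 of the 10 genes were lower. Of all genes 17.0% were lower and 8.03% higher at D0 after the correction, and 11.6% and 9.29% at D6. That correction moved the median of all genes from 0.01 to -0.10 at D0, against which the proteasome median was -0.47. Erythroid markers were also lower in KO cells at D0, with 7 of 10 called lower and none higher (1 lower without WT D0 replicate 2), and their part in the proteasome result was not tested.

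**Figure D3:**
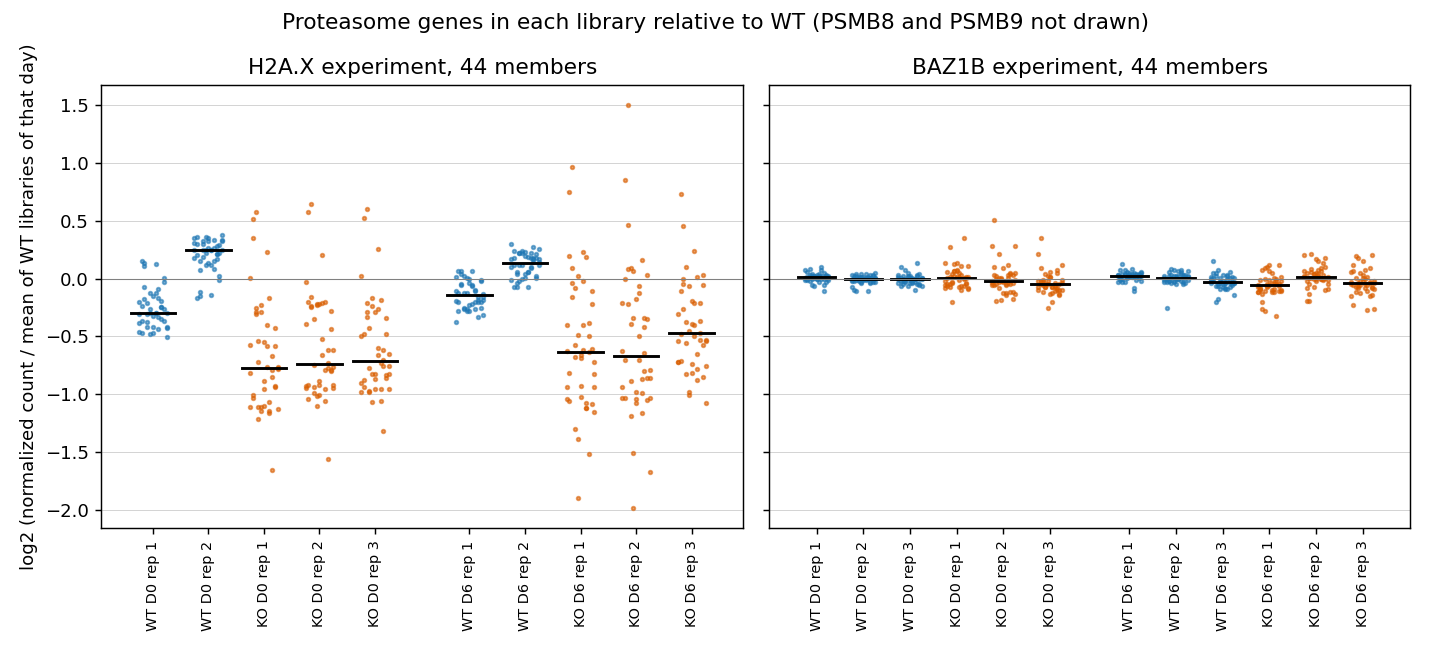
Normalized count of each tested gene in every library, as log2 of its ratio to the mean of the WT libraries of that experiment and day; each point is 1 gene, black lines are medians over 44 genes, and PSMB8 and PSMB9 are not drawn. In the H2A.X experiment the 2 WT libraries lie on either side of 0 and the KO libraries below both, while in the BAZ1B experiment all libraries centre near 0.

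Within the core particle most subunits were lower before any correction for length. At D0 6 of 7 alpha ring genes, 3 of 3 constitutive catalytic genes and 4 of 4 other beta genes were lower, with medians of -0.76, -1.0 and -1.01, where 16.7% of all genes were lower. After the length and GC correction 2, 3 and 4 of them were lower at D0 and 2, 0 and 1 at D6. PSMB5 was 143 and 216 in WT and 80.9, 104 and 92.5 in KO cells at D0 (log2 fold change -0.96 ± 0.21, edgeR adjusted p = 0.0101), and -0.99 ± 0.21 at D6 (adjusted p = 0.00592). PSMB6, the caspase-like subunit, was 184 and 307 in WT and 106, 124 and 125 in KO cells at D0 and had -1.06 ± 0.24 at D0 and -1.09 ± 0.24 at D6 (edgeR adjusted p = 0.0108 and 0.00654). PSMB7, the trypsin-like subunit, had -1.0 ± 0.21 and -0.90 ± 0.21 (edgeR adjusted p = 0.00922 and 0.00827). The non-catalytic PSMB3 was 265 and 370.0 in WT and 122, 112 and 158 in KO cells at D6, the strongest of the ring (-1.28 ± 0.25, edgeR adjusted p = 0.00468). The WT libraries lay above the KO libraries for all 4 of these beta genes on both days, as they did for 34.1% of all genes at D0 and 32.3% at D6. After the length and GC correction the 3 catalytic genes were called at D0 but not at D6 (-0.29, -0.22 and -0.23 for PSMB5, PSMB6 and PSMB7, adjusted p = 0.151, 0.305 and 0.232), nor was PSMB3 at D6 (-0.42, adjusted p = 0.0793). PSMA6 was the alpha ring gene that was not called, with 7.03 and 5.79 in WT and 5.36, 5.73 and 5.54 in KO cells at D0.

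Before correction the regulatory particle followed in part. At D0 3 of 6 ATPases, 1 of 3 other base genes (the ubiquitin receptor PSMD4) and 5 of 8 lid genes were lower. At D6 the counts were 3, 1 and 2. Of all genes 16.7% were lower at D0 and 20.9% at D6. After the length and GC correction 5 ATPases, 1 other base gene and 3 lid genes were lower at D0, and 3, 0 and 1 at D6. Of all genes 17.0% and 11.6% were lower after it. Chaperones of the base went in different directions: PSMD9 was lower (7.88 and 9.87 in WT and 3.96, 4.25 and 4.26 in KO cells at D0, log2 fold change -1.09 ± 0.17, edgeR adjusted p = 0.00490), and PSMD5 was higher (17.7 and 14.2 in WT and 22.8, 23.7 and 22.9 in KO cells, 0.54 ± 0.14, edgeR adjusted p = 0.0183). The PSMD5 call at D0 was also lost without any 1 of the KO D0 libraries (adjusted p = 0.0507, 0.0569 and 0.0533). After correction for length and GC, PSMD5 was no longer called at D0 (0.29, adjusted p = 0.0982) and remained called at D6 (0.45, adjusted p = 0.0294). All 4 PSMG chaperones of the core were lower on both days before correction, with -1.5 ± 0.30 for PSMG3 at D0 and -1.54 ± 0.30 for PSMG4 at D6 (edgeR adjusted p = 0.00807 and 0.00494). After the length and GC correction 3 of the 4 were lower at D0 and 0 at D6. PSME1 was lower at D0 (-1.01 ± 0.19, adjusted p = 0.00757) and not called at D6 (-0.50 ± 0.19, edgeR adjusted p = 0.0561). PSME2 was lower on both days (-0.85 ± 0.27 and -1.27 ± 0.27, edgeR adjusted p = 0.0360 and 0.00632). PSME4 was higher at D6, with 13.7 and 13.0 in WT and 25.9, 37.7 and 18.3 in KO cells (1.03 ± 0.25, edgeR adjusted p = 0.00995). Its transcript is 7250 bases long, and after the length and GC correction its value was 0.15 and not called. The same correction ended the calls of PSME2 on both days (-0.30 and -0.48) and of PSMG4 at D6 (-0.72), and PSME2 at D0 was not called without any 1 of the KO D0 libraries either (adjusted p = 0.0739, 0.0956 and 0.0828).

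**Figure D4:**
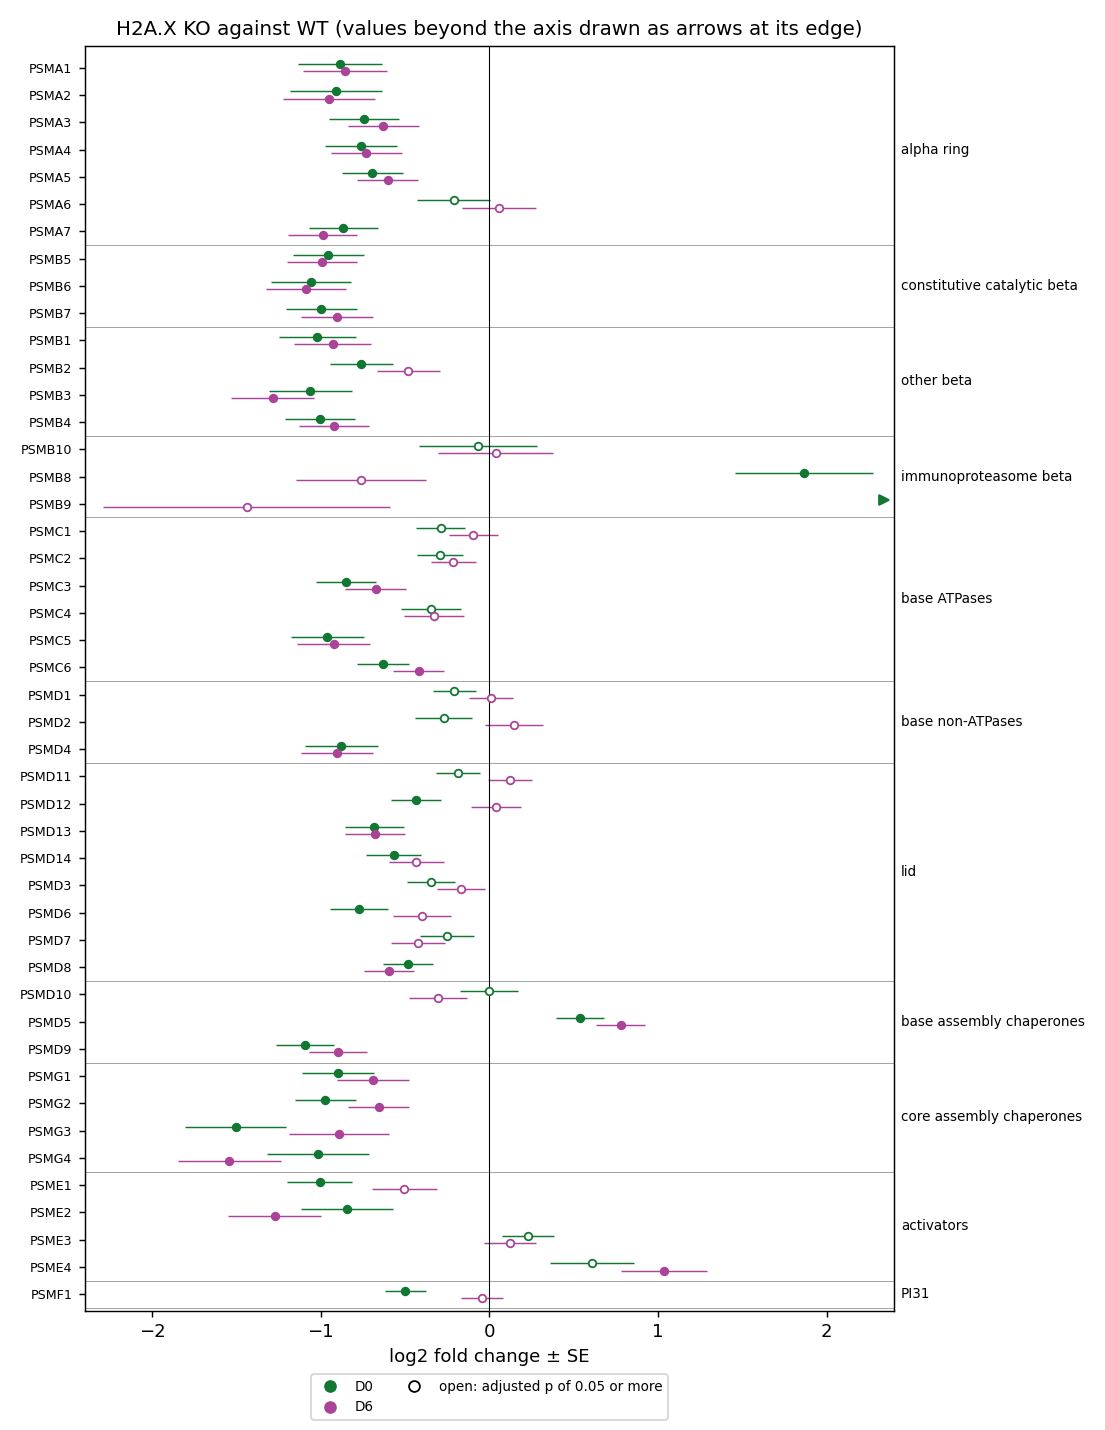
Log2 fold change of H2A.X KO over WT for each of the 46 tested genes at D0 and D6, grouped by role, with its SE; filled points passed an adjusted p of 0.05 and the arrow marks a value beyond the axis. Most core particle genes lie near -1 on both days, PSMB8 and PSMB9 lie to the right at D0 and not at D6, and PSMD5 and PSME4 lie to the right on both days.

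PSMB8 and PSMB9 went against this direction at D0 and were higher in H2A.X KO than in WT cells. PSMB9 was 0.226 and 0.335 in WT and 6.86, 4.95 and 2.26 in KO cells, from 4 and 5 and 145, 103 and 49 reads (log2 fold change 4.04 ± 0.68, edgeR adjusted p = 0.00555). PSMB8 was 3.02 and 2.97 in WT and 14, 10.7 and 8.08 in KO cells (1.87 ± 0.41, edgeR adjusted p = 0.0103). For both genes every KO library lay above both WT libraries, as was so for 36.1% of all genes. Without WT D0 replicate 2 the changes were 4.33 and 1.85, with adjusted p of 0.0849 and 0.112. At D6 neither was called (-1.44 ± 0.85 for PSMB9 and -0.76 ± 0.38 for PSMB8, edgeR adjusted p = 0.191 and 0.131), and PSMB10 was called on neither day (-0.07 ± 0.35 and 0.04 ± 0.34, edgeR adjusted p = 0.895 and 0.938). Mast cell and eosinophil markers were higher in the same KO libraries at D0, with 4 of 6 tested markers called, against 18.4% of all genes. Fewer of them were called without WT D0 replicate 2. The 1 megakaryocyte marker tested was also called higher, with a log2 fold change of 2.39. The part of either kind of marker was not tested.

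Genes that work with the proteasome were counted from lists chosen with earlier results of these data known. Of 13 partners in assembly, ubiquitin removal and regulation, 8 were lower and 2 higher in H2A.X KO cells at D0, and 7 lower and 2 higher at D6. Over all genes 16.7% were lower and 18.4% higher at D0, and 20.9% and 22.2% at D6. Without WT replicate 2 of the day no partner was called on either day (list median -0.30 at D0 and -0.38 at D6; lowest edgeR adjusted p = 0.0940 and 0.0640). SEM1, a small lid subunit, ZFAND2A, a stress-induced proteasome binder, and POMP, the maturation factor of the core, had log2 fold changes of -1.06, -1.06 and -1.0 at D0 (edgeR adjusted p = 0.0110, 0.0202 and 0.0155), and ZFAND2A was not called after the length and GC correction (adjusted p = 0.108). Of 8 regulators of proteasome genes none was called at D0 and 3 were higher at D6. Those were DDI2, the protease that activates NFE2L1, at 1.85, NFE2L1 at 0.86 and NFE2L2 at 0.66 (edgeR adjusted p = 0.00430, 0.00949 and 0.0142); after the correction DDI2 had 0.79 and NFE2L1 0.49 (adjusted p = 0.0423 and 0.0472). Without WT D6 replicate 2 none of the 3 was called (1.80, 0.80 and 0.60, edgeR adjusted p = 0.0639, 0.0926 and 0.121). In BAZ1B WT maturation, where 33.5% of all genes rose and 35.4% fell, 5 partners rose and 1 fell, and 4 regulators rose and 3 fell, with DDI2 at 1.39 and NFE2L3 at -1.39 (edgeR adjusted p = 9.11e-10 and 0.000431). Of 14 genes of ubiquitin and its delivery 5 rose and 5 fell there, a share close to that of all genes.

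Loss of BAZ1B left the proteasome genes with few calls. At D0 none of 46 was called, against 3.88% of 13879 genes (1.25% higher, 2.64% lower), with 3 at an unadjusted p under 0.05 and 0 called by DESeq2. The log2 fold changes were -0.03 ± 0.04 for PSMB5, -0.04 ± 0.05 for PSMB6 and -0.01 ± 0.03 for PSMB7 (edgeR adjusted p = 0.756, 0.716 and 0.906). Those of the immunoproteasome genes were wider, 0.37 ± 0.19 for PSMB8, 0.49 ± 0.31 for PSMB9 and 0.28 ± 0.16 for PSMB10 (edgeR adjusted p = 0.367, 0.495 and 0.440). KO replicate 1 at D0 was the lowest of its group for all 3, and without it 4 genes were called, PSMB8, PSMB9, PSMA7 and PSMD14, named here after their values were seen. PSME1 and PSME2 had 0.03 ± 0.09 and 0.11 ± 0.08 (edgeR adjusted p = 0.935 and 0.572).

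At D6, 3 of 46 genes were higher in BAZ1B KO cells and 0 lower, against 6.87% and 5.97% of all genes (12.8% in all). PSMF1 was 48.8, 46.9 and 48.4 in WT and 52.2, 54.3 and 55.5 in KO cells (0.17 ± 0.04, edgeR adjusted p = 0.0140). PSMD12, a lid subunit, was 35, 35.1 and 32.7 in WT and 36.5, 39.7 and 38.7 in KO cells (0.16 ± 0.04, edgeR adjusted p = 0.0206). PSMC4, a base ATPase, was 139.9, 138 and 136 in WT and 149.6, 155 and 153 in KO cells (0.15 ± 0.03, edgeR adjusted p = 0.0103). For each of the 3 genes the KO libraries lay above the WT libraries, by small steps, as was so for 15.7% of all genes. Without WT D6 replicate 3 PSMF1 alone was called, PSMF1 was lost without WT D6 replicate 2 or KO D6 replicate 3 (adjusted p = 0.0735 and 0.0601) and PSMD12 without KO D6 replicate 2 or 3 (0.0976 and 0.0771), without KO D0 replicate 1 the count was 6 (4 higher, 2 lower), and upper-quartile scaling called 6 (3 higher, 3 lower). The catalytic pairs were not called at D6 by edgeR with all libraries, with 0.62 ± 0.22 for PSMB8, 0.34 ± 1.04 for PSMB9, -0.17 ± 0.16 for PSMB10, -0.07 ± 0.04 for PSMB5, -0.03 ± 0.05 for PSMB6 and -0.09 ± 0.03 for PSMB7 (edgeR adjusted p = 0.0919, 0.883, 0.555, 0.250, 0.774 and 0.0803). PSMB8 was called higher by DESeq2 (adjusted p = 0.0225), by edgeR with no filter on low counts (1.11e-05) and without KO D0 replicate 1 (0.00496), and PSMB7 was called lower by edgeR with upper-quartile scaling (0.0373). PSME1 and PSME2 had -0.10 ± 0.09 and -0.14 ± 0.08 (edgeR adjusted p = 0.536 and 0.329). No proteasome gene had a BAZ1B effect that differed between the days by edgeR (2.47% of all genes did, 1.58% upward and 0.893% downward; 2 proteasome genes had an unadjusted p under 0.05, and DESeq2 called PSMF1).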

How the data were processed

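Per the labels and methods of the study, reads were aligned by the authors to hg38 with STAR 2.7.0f and counted per gene name with featureCounts of Subread 1.6.4, and the deposited values are raw counts, 1 column a library. The library kit and read length differ between the sources, so strandedness is uncertain. The proteasome genes, the gene lists and the tests were chosen with earlier results of these data known. Each experiment was fitted over all genes with edgeR 4.0.16 (R 4.3.3; filterByExpr with a minimum count of 10 and total of 15; TMM scaling; quasi-likelihood test, 2-sided), 1 coefficient for each genotype and day, and a gene was called at a Benjamini-Hochberg adjusted p below 0.05. The experiments were never tested against each other. P-values measure the spread between these libraries, which the study describes as subclones of each genotype. Levels used the length of the Ensembl canonical transcript in GENCODE v44, and the corrected fits added a natural spline of length and of GC (5 degrees of freedom each) per library. With fold change, SE and p, the text names the 3 called proteasome genes of largest change each way in each comparison, PSMB5 to PSMB10, PSME1 and PSME2 in KO against WT, up to 3 called genes of each list, and the targeted genes; other fold changes printed (PSMB8, PSMB9 and PSMB10 in groups where they were outside that rule, PSME2, PSME3, PSMF1, PSMG1, PSMG2 and PSMG4 in maturation, and TAP1) were chosen after their values were seen. Alternatives were DESeq2 1.42.0, upper-quartile scaling, no filter on low counts, replicate blocks, the corrected fits and leaving out each library; the gene lists without H2A.X WT replicate 2 were added after seeing the data. The main edgeR fit was run on simulated counts and checked for KO against WT at D0 only. Deviations of KO libraries of the same number from their group means were compared between D0 and D6. The correlations were 0.549, 0.349 and 0.272 in H2A.X KO and 0.473, 0.550 and 0.109 in BAZ1B KO cells. Libraries of different numbers were not compared, so the pairing of KO libraries comes from their numbers and not from these values.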

Additional observations from a re-analysis of the deposited data

Results flagged for a closer look

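In the H2A.X experiment the effect of KO on PSMB9 differed between the days by -5.48 on the log2 scale (edgeR, adjusted p = 0.0442). For 3 proteasome genes the D0 and D6 libraries were fully apart in each WT group, but in opposite directions. Of all genes, 25.2% lay fully higher and 26.1% fully lower at D6 in H2A.X WT cells. In BAZ1B WT cells 38.1% lay fully higher and 39.9% fully lower. How many of all genes were apart in opposite directions was not counted. PSMB8 had a log2 fold change of D6 over D0 of 1.19 in H2A.X WT and -2.58 in BAZ1B WT cells. PSMD3, a subunit of the lid, had -0.135 in H2A.X WT and 0.162 in BAZ1B WT cells, and PSME4, the PA200 activator, had -0.244 and 0.100. These 3 differences between the experiments were not tested, and the experiments were counted in separate tables and scaled separately.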

How the results depend on the processing

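Leaving out 1 library at a time gave 0 to 35 called proteasome genes for H2A.X KO against WT at D0, 0 to 30 at D6, 0 to 2 for the difference between the days, 9 to 13 for H2A.X KO maturation, 0 to 4 for BAZ1B KO against WT at D0, 1 to 6 at D6, 27 to 32 for BAZ1B WT and 24 to 30 for BAZ1B KO maturation; H2A.X WT maturation stayed at 0. The counts of 0 for H2A.X KO against WT came without WT replicate 2 of that day, and that of 20 without KO D0 replicate 1. For the difference between the days the count was 0 without H2A.X WT D0 replicate 1 or 2, KO D0 replicate 1 or 2, WT D6 replicate 1 or KO D6 replicate 2.

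The length and GC correction gave 10 called genes for H2A.X KO against WT at D6 where 26 were called without it, and 14 together with the replicate block. With both, 19 genes were called in H2A.X KO maturation and 3 for the H2A.X difference between the days. DESeq2 called 1 gene in H2A.X WT maturation, 2 for the H2A.X and 1 for the BAZ1B difference between the days, and 6 (4 higher, 2 lower) for BAZ1B KO against WT at D6. Upper-quartile scaling called 2 for the H2A.X difference and 6 for BAZ1B KO against WT at D6. With no filter on low counts, 1 gene was called in H2A.X WT maturation, 2 for the H2A.X difference and 2 for BAZ1B KO against WT at D0. Upper-quartile scaling moved the median of all genes in H2A.X KO against WT at D6 from -0.01 to -0.11. Beyond the smaller number of libraries when 1 is left out, the cause was not tested.

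The replicate block was a term for the number in KO against WT, and for each genotype and number in maturation and the difference between the days. It gave 36 called genes for H2A.X KO against WT at D0, 31 at D6, 4 in H2A.X WT maturation (PSMB8, PSME1, PSME3 and PSMG3), 15 in H2A.X KO maturation, 2 for the H2A.X difference, 0 and 3 for BAZ1B KO against WT, 30 and 29 for BAZ1B maturation and 0 for its difference. KO and WT libraries of the same number share only a number (correlations -0.123 to 0.233). BAZ1B WT libraries of the same number at D0 and D6 had correlations of 0.199, -0.0441 and 0.168. The 2 pairs of H2A.X WT libraries had 0.548, near the highest of the KO pairs (0.549). With 2 libraries a day the 2 pairs must have the same value. Whether a WT number marks the same subclone on both days was not established. The block changed the sign of PSMB10 in H2A.X KO against WT at D0 to 0.0535.

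Other values that changed sign had no call with all libraries in edgeR; among them PSME1 and PSMB8 in H2A.X KO against WT at D6 were called lower, and PSMB10 higher, under some other alternatives (PSME1 -0.61 with upper-quartile scaling, adjusted p = 0.0247; PSMB8 -1.28 without KO D6 replicate 1, 0.0166; PSMB10 1.24 with correction and block, 0.0239). For PSMB10 in H2A.X KO against WT at D0 they were 0.53 with the correction, 0.66 with correction and block, and -0.425 to 0.40 with a library left out (above 0 without WT D0 replicate 2 or KO D0 replicate 3); at D6 they were -0.0726 with upper-quartile scaling and -0.0621 to 0.191 with a library left out (below 0 without WT D6 replicate 1 or KO D6 replicate 1). In the same comparison at D6, PSME1 had 0.22 with the correction and 0.25 with correction and block, PSMB8 0.0722 with both, and PSMB9 -1.99 to 0.0900 with a library left out (above 0 without WT D6 replicate 1). In BAZ1B KO against WT at D0, correction without and with the block gave 0.0061 and 0.0054 for PSMB5 and 0.0220 and 0.0218 for PSMB7, and PSME1 had -0.0796 to 0.126 with a library left out (below 0 without WT D0 replicate 1 or KO D0 replicate 2). At D6 they gave 0.0054 and 0.0046 for PSMB5 and 0.0608 and 0.0600 for PSMB6, which had -0.0917 to 0.0117 with a library left out (above 0 without KO D6 replicate 1). Of the other single-gene values, 331 kept direction and side of the threshold under an alternative that kept all libraries, 18 lost their call and 8 gained one, and with a library left out the numbers were 625, 42 and 7. Without division by length the share of PSMB9 was 0.143% in H2A.X WT cells at D0, 9.54% in BAZ1B WT cells at D0 and 0.0845% at D6, and that of PSMB8 was 15.2% in BAZ1B WT cells at D0.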
